A study of Homo sapiens with 6 samples.

Results

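Small nucleolar RNA host genes were examined in SK-N-SH human neuroblastoma cells that had been exposed to dopamine. The set was chosen by name and held 9 genes (GAS5, SNHG1, SNHG3, SNHG5, SNHG6, SNHG7, SNHG8, SNHG12 and SNHG15) of the 26789 in the table, each listed in 1 row. The dopamine group was SK-N-SH cells labelled wild type, kept in dopamine for 6 h after a day in standard medium (n = 3), and the control group was the same line given medium alone (n = 3). All samples came from this line, and the labels number the replicates without naming separate cultures. The p-values therefore rest on a spread between libraries that may be technical only. The printed dopamine dose seems to have lost a unit prefix and is not used, and the series text also names SH-SY5Y, a subline of SK-N-SH. RNA was depleted of ribosomal RNA and sequenced from random primers, so transcripts with and without poly(A) tails could be read.

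A snoRNA host gene is transcribed and spliced like other genes, and its snoRNAs lie in the introns. Small nucleolar RNAs (snoRNAs) are released from the cut-out introns by debranching and trimming and then guide 2′-O-methylation (box C/D class) or pseudouridylation (box H/ACA class) of ribosomal and spliceosomal RNA. In non-coding hosts the joined exons carry only short reading frames. Many of these spliced RNAs are bound by ribosomes in the cytoplasm and are short-lived, because nonsense-mediated decay removes them. Other hosts are protein-coding genes. Many hosts of both kinds, ribosomal protein genes among them, start with a C followed by a run of pyrimidines. This is the terminal oligopyrimidine (TOP) element that ties translation to mTOR. GAS5, whose transcripts were first found to accumulate in growth-arrested cells, is the standard example of a non-coding host. Such hosts are followed in tumour cells, neuroblastoma included, as RNAs whose level moves with growth.

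Start sites are shown because many snoRNA hosts are known to start with a TOP run, as do many genes of the translation machinery. Each window runs from 20 bases before the start site of the RefSeq gene to 30 bases from it (GRCh38.p14), and capitals mark the unbroken run of C and T that begins with a C at the start site.
SNHG5: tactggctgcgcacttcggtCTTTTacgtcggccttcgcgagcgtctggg
SNHG12: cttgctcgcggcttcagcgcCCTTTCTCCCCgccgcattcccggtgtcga
SNHG7: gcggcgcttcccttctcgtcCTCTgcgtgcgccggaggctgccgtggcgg
SNHG1: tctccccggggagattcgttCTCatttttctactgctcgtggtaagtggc
SNHG8: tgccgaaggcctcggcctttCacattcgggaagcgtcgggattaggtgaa
SNHG3: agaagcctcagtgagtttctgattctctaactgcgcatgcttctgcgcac
These lie at chr6:85678704-85678753, chr1:28581844-28581893, chr9:136728155-136728204, chr11:62855856-62855905, chr4:118278742-118278791 and chr1:28505923-28505972, the fifth and sixth on the plus strand and the others on the minus strand. The run was 11 bases long at SNHG12, 5 at SNHG5, 4 at SNHG7, 3 at SNHG1 and 1 at SNHG8, and SNHG3 had none. For GAS5 the RefSeq start lies upstream of the GENCODE 29 gene, and the RefSeq window held no such run. In GENCODE 29, 6 of 29 GAS5 transcripts began with the stretch below (chr1:173868843-173868882, GRCh38, minus strand), which opens with a run of 6.
GAS5: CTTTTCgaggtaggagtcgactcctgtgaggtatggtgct
A C at the start site was found in 5 of the 7 hosts whose RefSeq window was read (71.4%), in 60.5% of 81 ribosomal protein gene symbols and in 14.7% of 35116 windows of all genes. A run of at least 5 was found in 2 of the 7 (28.6%), in 54.3% of the ribosomal protein symbols and in 4.07% of all windows. These shares describe letters on the sense strand only and are not evidence of a working element.

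The products of the hosts differ in class. In the GENCODE 29 annotation SNHG1 holds 6 snoRNAs named as box C/D (SNORD22 and SNORD25 to SNORD30 without SNORD29), SNHG5 holds SNORD50B, SNHG3 the paired box H/ACA RNAs SNORA73A and SNORA73B, SNHG7 the SNORA17 pair, SNHG8 SNORA24, SNHG15 SNORA9, SNHG6 a box C/D RNA, and SNHG12 both classes. That annotation lists none within GAS5, which is known from the literature as a host of box C/D snoRNAs. A pair of each class, from 4 hosts, is printed to show what the introns carry. Capitals mark box C (TGATGA) and the last CTGA (box D) in box C/D RNAs and the terminal ACA in box H/ACA RNAs, read from GENCODE 29 transcripts (GRCh38).
SNORD50B: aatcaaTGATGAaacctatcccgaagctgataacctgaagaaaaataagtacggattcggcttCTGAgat
SNORD27: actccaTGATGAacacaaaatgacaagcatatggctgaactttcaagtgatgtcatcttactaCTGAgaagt
SNORA24: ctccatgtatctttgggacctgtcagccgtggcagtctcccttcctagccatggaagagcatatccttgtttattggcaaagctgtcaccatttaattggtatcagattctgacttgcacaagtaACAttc
SNORA17A: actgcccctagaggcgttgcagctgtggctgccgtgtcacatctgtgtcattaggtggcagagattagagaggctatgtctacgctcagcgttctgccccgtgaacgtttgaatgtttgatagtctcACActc
SNORD50B (chr6:85677589-85677658) and SNORD27 (chr11:62855012-62855083) lie on the minus strand inside SNHG5 and SNHG1, SNORA24 (chr4:118279190-118279320) on the plus strand inside SNHG8, and SNORA17A (chr9:136726747-136726879) on the minus strand inside SNHG7. The table lists 5 genes typed snoRNA and none lies inside a host, so the values below are those of the host transcripts and not of the snoRNAs.

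Depth, recovered from the steps between low values of short pseudogenes, ran from 19422000 to 24221000 fragments a library, so a 1 kb gene at 1 FPKM (fragments per kilobase, scaled to sequencing depth) drew 19.4 to 24.2 fragments. With the merged exon length in GENCODE 29 taken as a guide, the lowest host, SNHG12, rested on about 168 to 220 fragments a library and the highest, SNHG5, on about 1915 to 2436. All 5 mesenchymal neuroblastoma markers, among them VIM and FN1, had a mean of 1 FPKM or more, as SK-N-SH is known to hold cells of this state. The 3 listed epithelial markers summed to 0.148 to 0.293 FPKM in dopamine libraries and 0.223 to 0.249 FPKM in control libraries, and immune markers to at most 0.0283 FPKM. Across all tested genes the log2 fold change fell with GC content, and the deviation of single libraries from the gene means had slopes per 10 GC points of -0.03, -0.06 and -0.26 log2 units in dopamine replicates 1, 2 and 3 and 0.02, 0.11 and 0.22 in control replicates 1, 2 and 3 (two-sided p = 0.1 in an exact permutation test, and 3 against 3 allows none smaller). This trend touches every result on the hosts, and the value after a GC correction is given for each. The correction uses the longest annotated transcript of each gene. That form need not be the one expressed here, so the corrected values are uncertain to that extent.

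By mean FPKM the higher hosts were among the more abundant non-coding genes of these cells, and the lowest were not. Per length, SNHG5 stood highest, with a mean of 35.8 FPKM over all 6 libraries, followed by SNHG8 (28.3), GAS5 (25.7), SNHG6 (20.9), SNHG3 (10.1), SNHG1 (9.10), SNHG15 (7.32), SNHG7 (4.00) and SNHG12 (2.16). Ranks were taken among 6374 non-coding genes in the table, of which 726 had a mean of 1 FPKM or more. Pseudogenes and genes typed as small RNA were not counted. SNHG5 ranked number 12, SNHG8 18, GAS5 21, SNHG6 27, SNHG3 56, SNHG1 64, SNHG15 82, SNHG7 170 and SNHG12 348. The order was the same in every library except for SNHG8 and GAS5: SNHG8 was higher in 5 of 6 libraries, so these neighbours were not separated beyond their spread. SNHG3 lay 1.12-fold above SNHG1 and was higher in 6 of 6 libraries. The FPKM values of the 9 hosts summed to 144, 153 and 154 in dopamine replicates 1, 2 and 3, against 131, 145 and 132 in control replicates 1, 2 and 3. The groups overlapped, since control replicate 2 stood above dopamine replicate 1. Of this sum SNHG5 made up 25.3% ± 0.763 in dopamine and 24.6% ± 0.594 in control libraries (SD, n = 3 each), and GAS5 18.9% ± 0.773 and 16.8% ± 0.711.

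**Figure D1:**
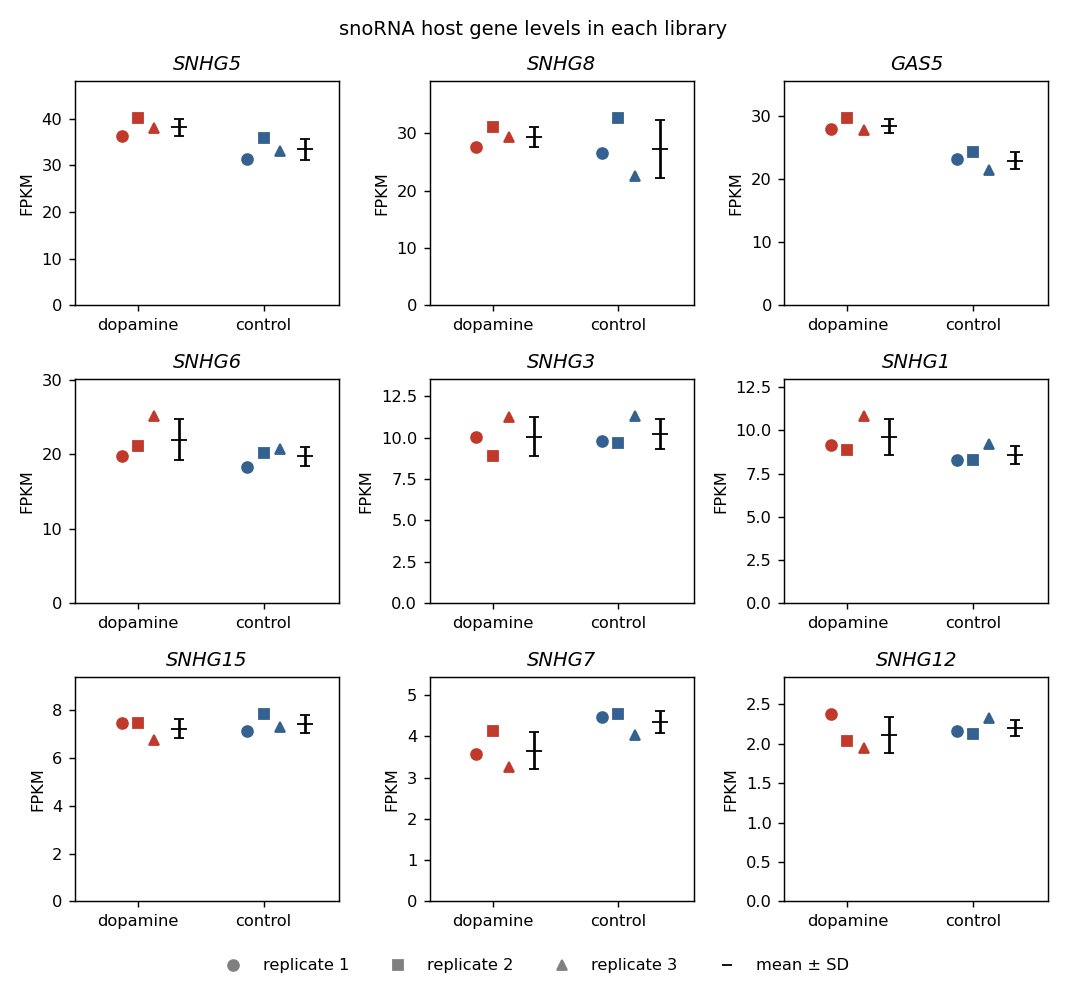
FPKM of the 9 host genes in each library, in panels ordered by mean level, with dopamine on the left and control on the right of each panel, a symbol for each replicate and the mean ± SD beside the points. In GAS5 and SNHG5 the 3 dopamine points lie above the 3 control points, and in the other 7 panels the groups overlap.

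The comparison of dopamine with control cells asked how the hosts respond to an agent that the study examined for its action on growth. No host reached the adjusted threshold of 0.05 in limma (log2(FPKM + 0.5), intensity trend, two-sided, Benjamini-Hochberg over 11791 genes), against 0.102% of all tested genes (0.0848% higher and 0.017% lower with dopamine). All 9 hosts passed the filter on low values. In bulk RNA, a change in the share of cells of a type and a change in RNA per cell cannot be told apart. At an unadjusted p under 0.05 lay GAS5 and SNHG5, both higher with dopamine, which is 2 of 9 hosts. Of all tested genes 32.5% did so, 24.4% higher and 8.05% lower with dopamine. The groups did not overlap in the same 2 of 9, against 38.4% of all tested genes, 24.4% with the dopamine values above. These shares lie near the background. The median log2 fold change was 0.12 over the hosts and 0.08 over all tested genes. After median-of-ratios scaling it was 0.01 over the hosts and -0.02 over all genes.

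GAS5 (ENSG00000234741.3, hg19 chr1:173833038-173838020), whose exonic RNA is known to bind the glucocorticoid receptor, had the largest rise in mean. It stood at 27.9, 29.6 and 27.7 FPKM in dopamine replicates 1, 2 and 3 and at 23.2, 24.2 and 21.4 FPKM in control replicates 1, 2 and 3. The lowest dopamine library thus lay above the highest control library. The means were 28.4 ± 1.05 FPKM with dopamine and 22.9 ± 1.41 FPKM in control (SD, n = 3 each), a log2 fold change of 0.30 (SE 0.08, 1.23-fold, 95% interval 1.09 to 1.39) with an unadjusted p of 0.00352 and an adjusted p of 0.11 in limma. With sample quality weights GAS5 passed (limma adjusted p = 0.02), as did 22.9% of all tested genes. Across the 21 alternative settings its adjusted p ran from 0.02 to 0.9. The longest GAS5 transcript has a GC content of 42.2%, and tested genes between 40 and 45% GC had a median log2 fold change of 0.32. Once GC content and transcript length had been regressed out, GAS5 had a log2 fold change of 0.02 (SE 0.08, limma adjusted p = 0.9), and its corrected log2 values, 4.78, 4.80 and 4.55 in dopamine and 4.62, 4.74 and 4.71 in control replicates 1, 2 and 3, overlapped.

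SNHG5 (ENSG00000203875.6, hg19 chr6:86370710-86388451), the host of SNORD50 RNAs that guide methylation of ribosomal RNA, stood at 36.3, 40.0 and 37.9 FPKM in dopamine replicates 1, 2 and 3. Its control replicates stood at 31.4, 35.8 and 33.1 FPKM. The groups were apart by a narrow margin, dopamine replicate 1 lying just above control replicate 2. The log2 fold change was 0.19 (SE 0.08, 1.14-fold, 95% interval 1.005 to 1.29, unadjusted p = 0.0433, limma adjusted p = 0.146). At 47.1% GC, SNHG5 lay in a bin, from 45 to 50% GC, whose median log2 fold change over all tested genes was 0.16. After the correction its log2 fold change was 0.06 (SE 0.07, limma adjusted p = 0.646).

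SNHG1 (ENSG00000255717.2, hg19 chr11:62619460-62623386), the host of a cluster of box C/D snoRNAs, had 9.16, 8.85 and 10.8 FPKM in dopamine replicates 1, 2 and 3 and 8.31, 8.28 and 9.18 FPKM in control replicates 1, 2 and 3. Both replicates numbered 3 were the highest of their group, and the groups overlapped through control replicate 3. The log2 fold change was 0.15 (SE 0.10, limma adjusted p = 0.312), and the 95% interval of the fold ran from 0.946 to 1.30. After the GC and length correction the sign turned, to -0.14 (SE 0.10, limma adjusted p = 0.486).

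SNHG6 (ENSG00000245910.4, hg19 chr8:67833919-67838633) stood at 19.8, 21.1 and 25.1 FPKM in dopamine replicates 1, 2 and 3 and at 18.3, 20.1 and 20.7 FPKM in control replicates 1, 2 and 3. Dopamine replicate 3 alone lay clear of the other 5 libraries. The log2 fold change was 0.15 (SE 0.10, limma adjusted p = 0.314) and fell to 0.05 without that library. It was -0.03 (SE 0.08) after the GC and length correction.

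Of the box H/ACA hosts, SNHG8 (ENSG00000269893.2, hg19 chr4:119199864-119200978) was the most abundant and its control libraries the most scattered of the 9 hosts. Its values were 27.6, 31.1 and 29.3 FPKM in dopamine replicates 1, 2 and 3 and 26.6, 32.6 and 22.6 FPKM in control replicates 1, 2 and 3, a coefficient of variation of 5.98% with dopamine and 18.4% in control. The highest and the lowest values were both control libraries. The log2 fold change was 0.12 (SE 0.12, limma adjusted p = 0.506), and it was -0.01 without control replicate 3 and 0.25 without control replicate 2. After the GC and length correction it was 0.06 (SE 0.12, limma adjusted p = 0.829).

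SNHG3 (ENSG00000242125.2, hg19 chr1:28832492-28837404) carries the SNORA73 pair, known as U17, which is needed for cutting the ribosomal RNA precursor rather than for modifying it. Its values were 10.1, 8.89 and 11.2 FPKM in dopamine replicates 1, 2 and 3 and 9.78, 9.65 and 11.3 FPKM in control replicates 1, 2 and 3. Dopamine replicate 2 was the lowest library and the other 5 overlapped between the groups, with a log2 fold change of -0.03 (SE 0.11, limma adjusted p = 0.88, 95% interval of the fold 0.829 to 1.16). After the GC and length correction SNHG3 had the lowest log2 fold change of the 9 hosts, -0.22 (SE 0.10, unadjusted p = 0.0593, limma adjusted p = 0.315). The whole of SNHG3 lies inside RCC1 (100% of its span), a gene for a nucleotide exchange factor of the GTPase Ran, and the authors' assignment of shared reads is not stated. RCC1 averaged 20.1 ± 0.0224 FPKM in dopamine and 20.8 ± 0.356 FPKM in control libraries (log2 fold change -0.04, limma adjusted p = 0.667, and -0.10 after the correction, limma adjusted p = 0.33). Values of hosts that overlap other genes are uncertain for that reason. EIF4A1, another snoRNA host, overlaps the readthrough gene SENP3-EIF4A1 and was listed at only 0.107 to 0.355 FPKM. Whether the overlap bears on that value was not tested. Apart from that of SNHG7, given next, the other overlaps were small or with genes under 1 FPKM: 801 bases of GAS5 lie in ZBTB37 (mean 0.412 FPKM), 42 in GAS5-AS1 (0.481 FPKM), 365 bases of SNHG6 in MCMDC2 (0.0401 FPKM) and 2 bases of SNHG12 in TRNAU1AP, which averaged 6.20 ± 0.699 FPKM with dopamine and 6.26 ± 0.383 FPKM in control.

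SNHG7 (ENSG00000233016.2, hg19 chr9:139615818-139622636), the host of the SNORA17 pair, was the host with the lowest log2 fold change before correction. It stood at 3.58, 4.13 and 3.25 FPKM in dopamine replicates 1, 2 and 3 and at 4.47, 4.53 and 4.04 FPKM in control replicates 1, 2 and 3. The only overlap was between dopamine replicate 2 and control replicate 3. The log2 fold change was -0.23 (SE 0.12, unadjusted p = 0.084, limma adjusted p = 0.201, 95% interval of the fold 0.712 to 1.03). SNHG7 had the highest GC content of the hosts, 65.9%, and tested genes of 60% GC or more had a median log2 fold change of -0.17. After the correction SNHG7 stood at -0.03 (SE 0.08, limma adjusted p = 0.877). Its span overlaps the protein-coding gene FAM69B over 39.4%, and FAM69B averaged 7.99 ± 0.913 FPKM with dopamine and 9.55 ± 0.722 FPKM in control (log2 fold change -0.25, limma adjusted p = 0.151). After the correction FAM69B stood at -0.07 (limma adjusted p = 0.588).

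SNHG12 (ENSG00000197989.9, hg19 chr1:28905050-28909495), whose introns carry several box H/ACA RNAs and SNORD99, had 2.37, 2.03 and 1.94 FPKM in dopamine replicates 1, 2 and 3 and 2.16, 2.13 and 2.32 FPKM in control replicates 1, 2 and 3. The dopamine libraries lay on both sides of the control ones. The log2 fold change was -0.05 (SE 0.12, limma adjusted p = 0.786), and 0.01 after the GC and length correction (SE 0.08, adjusted p = 0.961). SNHG15 (ENSG00000232956.4, hg19 chr7:45022622-45026560), the host of SNORA9 and known as a very short-lived RNA that accumulates in stressed cells, had 7.46, 7.45 and 6.76 FPKM in dopamine replicates 1, 2 and 3 and 7.12, 7.82 and 7.29 FPKM in control replicates 1, 2 and 3. The groups overlapped, and the log2 fold change was -0.03 (SE 0.09, limma adjusted p = 0.809, 95% interval of the fold 0.845 to 1.13). After the correction it was -0.13 (SE 0.08, limma adjusted p = 0.432).

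**Figure D2:**
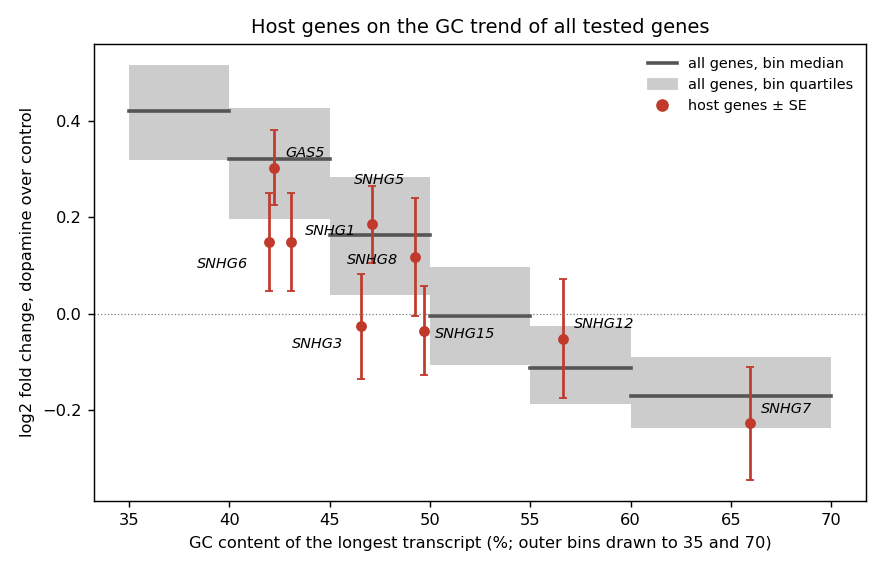
Log2 fold change (dopamine over control) against GC content of the longest transcript, with the median and quartiles of all tested genes in 6 GC bins in grey and the 9 hosts with their SE in red. GAS5 at 42.2% GC stands at 0.30, near its bin median of 0.32. SNHG7 at 65.9% GC stands at -0.23, just above the lower quartile of its bin, -0.24. SNHG1 and SNHG6 (0.15 each) and SNHG3 and SNHG15 (-0.03 each) lie below the lower quartiles of their bins, 0.20 and 0.04.

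The log2 fold changes of the hosts tended to fall with GC content, but hosts of like GC content differed. SNHG3 at 46.6% and SNHG5 at 47.1% GC stood at -0.03 and 0.19. SNHG6, the host of lowest GC content, stood at 0.15, against a median of 0.32 for tested genes between 40 and 45% GC. The GC content of the hosts ran from 42.0% in SNHG6 to 65.9% in SNHG7. Over the 9 hosts Pearson's r between GC content and log2 fold change was -0.86 (Spearman's rho -0.80), and over 11579 tested genes it was -0.75. These are descriptions over genes measured in the same 6 libraries. After the correction r over the hosts was 0.14 (rho 0.03). The correction takes the GC trend out of each library by design, so this small r is no separate result. No host then had an unadjusted p under 0.05 in limma, and 17% of tested genes did. The corrected log2 fold changes lay between -0.22 for SNHG3 and 0.06 for SNHG5. Every dopamine slope lay below every control slope, so GC bias and a response that differs by base composition cannot be told apart here, and the correction takes out both.

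**Figure D3:**
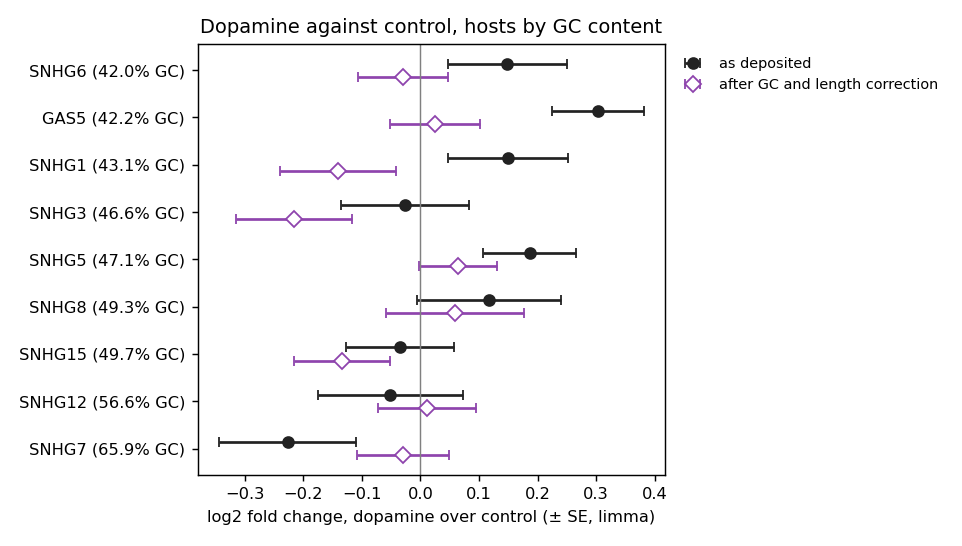
Log2 fold change (dopamine over control, ± SE from limma) of the 9 hosts, ordered from low GC content at the top to high at the bottom, as deposited (filled circles) and after the GC and length correction (open diamonds). GAS5 stands at 0.30 before and 0.02 after the correction, and SNHG7 at -0.23 before and -0.03 after it.

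Other non-coding hosts numbered 12 in the table and 9 of them were tested, with a median log2 fold change of -0.03 (-0.06 after the correction). None passed the adjusted threshold in limma, against 0.102% of all tested genes. At an unadjusted p under 0.05, 1 was higher and 1 lower, against 24.4% and 8.05% of all tested genes. After the correction 2 of the 8 with a GC value lay under 0.05, against 17% of tested genes. In GENCODE 29 a snoRNA lies inside 8 of the 9 tested hosts of this list, the exception being CASC7. ZFAS1, a host of box C/D snoRNAs, stood at 40.0, 44.2 and 38.6 FPKM in dopamine replicates 1, 2 and 3 and at 32.7, 33.2 and 31.6 FPKM in control replicates 1, 2 and 3, with no overlap. Its log2 fold change was 0.33 (SE 0.08, limma adjusted p = 0.11) and 0.38 after the GC and length correction (limma adjusted p = 0.0642). SNHG17 lay the other way, at 2.25, 2.55 and 2.26 FPKM with dopamine and 3.03, 2.93 and 3.01 FPKM in control (log2 fold change -0.29, limma adjusted p = 0.127, and -0.34 after the correction with an adjusted p of 0.133). EPB41L4A-AS1 averaged 2.06 ± 0.195 FPKM with dopamine and 1.74 ± 0.0631 FPKM in control (limma adjusted p = 0.282). Its log2 fold change was 0.19 as deposited and -0.06 after the correction.

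None of 24 tested protein-coding hosts outside the ribosome passed in limma. Below an unadjusted p of 0.05, 13 lay higher and 0 lower, against 24.4% and 8.05% of all tested genes. Once corrected, 2 of 24 lay below 0.05, against 17% of tested genes. The median log2 fold change of the list was 0.27 as deposited and 0.02 after the correction. In GENCODE 29, PRKDC and CCT3 of this list hold no snoRNA. HSPA8, the constitutive HSC70 chaperone gene, averaged 643 ± 61.9 FPKM with dopamine and 494 ± 14.1 FPKM in control (limma adjusted p = 0.11). Its log2 fold change was 0.38 as deposited and 0.20 after the correction. EIF4A2, a translation initiation helicase gene, averaged 20.8 ± 3.38 FPKM with dopamine and 14.2 ± 2.35 FPKM in control (limma adjusted p = 0.11). Its log2 fold change was 0.54 as deposited and 0.12 after the correction. CWF19L1 and the elongation factor gene EEF1B2 had log2 fold changes of 0.26 and 0.24 (limma adjusted p = 0.113 for each). Corrected, these were 0.01 and 0.14. Of 75 cytosolic ribosomal protein genes, many of them hosts with TOP starts, none passed in limma. Below an unadjusted p of 0.05, 14 lay higher and 1 lower, and 11 lay below it after the correction. The list's median stood at 0.10 as deposited and -0.03 after the correction.

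Genes of the machinery that makes snoRNAs were read next. Of 19 genes of the snoRNP core and its assembly none passed in limma. Below an unadjusted p of 0.05, 5 lay higher and 1 lower, against 24.4% and 8.05% of all tested genes. Once corrected, 3 of 18 lay below 0.05, against 17% of tested genes. The median log2 fold change of the list was 0.17 (-0.06 after the correction). COIL, which encodes the Cajal body scaffold coilin, averaged 6.23 ± 0.584 FPKM with dopamine and 4.29 ± 0.698 FPKM in control (limma adjusted p = 0.11). Its log2 fold change was 0.50 as deposited and 0.20 after the correction. The assembly factor genes ZNHIT3, SHQ1 and RPAP3 had log2 fold changes of 0.39, 0.33 and 0.59 (limma adjusted p = 0.11, 0.113 and 0.117). Corrected, SHQ1 stood at -0.06 and RPAP3 at 0.12, and ZNHIT3 had no GC value. Of 14 genes of intron release and trimming none passed. Below an unadjusted p of 0.05, 6 lay higher and 0 lower, and 1 lay below it after the correction. The list's median stood at 0.27 (-0.01 after the correction). The exosome subunit gene EXOSC9 averaged 6.06 ± 1.24 FPKM with dopamine and 3.76 ± 0.501 FPKM in control (limma adjusted p = 0.11). Its log2 fold change was 0.61 as deposited and 0.17 after the correction. The nuclease genes DIS3 and PARN and the helicase gene SKIV2L2 had log2 fold changes of 0.58, 0.33 and 0.58 (limma adjusted p = 0.124, 0.132 and 0.138). Corrected, these were 0.19, 0.10 and 0.19.

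The spliced RNAs of many non-coding hosts are removed by nonsense-mediated decay, and genes of this pathway were read for that reason. None of 23 tested decay factors passed in limma. Below an unadjusted p of 0.05, 7 lay higher and 0 lower, against 24.4% and 8.05% of all tested genes. Once corrected, 4 of 21 lay below 0.05, against 17% of tested genes. The median log2 fold change of the list was 0.23 (-0.03 after the correction). RBM8A, an exon junction complex subunit gene without a GC value, averaged 26.6 ± 3.02 FPKM with dopamine and 21.8 ± 0.885 FPKM in control (limma adjusted p = 0.115). The release factor gene ETF1, NBAS and the cap-binding subunit gene NCBP1 had log2 fold changes of 0.45, 0.39 and 0.39 (limma adjusted p = 0.116, 0.116 and 0.128). Corrected, these were 0.16, 0.17 and 0.05. Among 12 stress mRNAs known as decay targets 1 rose and none fell in limma, against 0.0848% and 0.017% of all tested genes. The list was chosen with earlier results of these data known, so this count says nothing about the list as a whole. The gene that rose was DDIT3, which encodes the stress transcription factor CHOP, at 8.47 ± 0.647 FPKM with dopamine and 4.19 ± 0.636 FPKM in control (log2 fold change 0.94, SE 0.12, limma adjusted p = 0.028), and it also passed after the correction (0.87, limma adjusted p = 0.0216). With any library other than control replicate 1 left out, with both replicates numbered 3 left out, and with no filter, no intensity trend or median-of-ratios scaling, no gene of these lists passed, DDIT3 included. The other members did not pass, among them ASNS, SESN2 and UPP1 at log2 fold changes of 0.43, -0.20 and -0.29 (limma adjusted p = 0.11, 0.162 and 0.137). Corrected, these 3 stood at 0.25, -0.08 and -0.43. Below an unadjusted p of 0.05 lay 2 higher and 1 lower as deposited, and 6 of 12 after the correction. The median of this list was 0.10 (0.07 after the correction).

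TOP mRNAs outside the ribosome, whose kind of start is known from many snoRNA hosts, had 19 tested genes, none of which passed in limma. Below an unadjusted p of 0.05, 8 lay higher and 1 lower, against 24.4% and 8.05% of all tested genes. Once corrected, 6 of 19 lay below 0.05, against 17% of tested genes. The median log2 fold change of the list was 0.19 (0.03 after the correction). EEF1A1, the elongation factor gene, averaged 1129 ± 72.3 FPKM with dopamine and 834 ± 69.0 FPKM in control (limma adjusted p = 0.11). Its log2 fold change was 0.44 as deposited and 0.23 after the correction. EIF3L and NPM1 had log2 fold changes of 0.32 and 0.44 (limma adjusted p = 0.11 and 0.116), and 0.22 and 0.18 after the correction. Of 14 genes of mTOR and LARP1 control, which act on TOP translation, none passed. Below an unadjusted p of 0.05, 6 lay higher and 5 lower, and 2 lay below it after the correction. The list's median stood at 0.07 (-0.07 after the correction). The mTOR complex genes AKT1S1, RPTOR and MLST8 had log2 fold changes of -0.26, -0.27 and -0.28 (limma adjusted p = 0.11, 0.111 and 0.111). The cap-binding protein gene EIF4E had one of 0.48 (limma adjusted p = 0.111). Corrected, AKT1S1, RPTOR, MLST8 and EIF4E stood at -0.13, -0.15, -0.10 and 0.08. Nuclear-retained RNAs, a sign of library or RNA quality, did not pass either. MALAT1 averaged 1.80 ± 0.661 FPKM with dopamine and 1.03 ± 0.158 FPKM in control (limma adjusted p = 0.119). NEAT1 averaged 1.51 ± 0.495 FPKM with dopamine and 1.03 ± 0.172 FPKM in control (limma adjusted p = 0.205). Their log2 fold changes were 0.56 and 0.37 as deposited, and 0.19 and 0.12 after the correction. In control libraries the means of both lay close to the filter of 1 FPKM. How fully nuclear RNAs and RNAs without poly(A) tails were captured was not tested, nor was the part of these RNAs in the result.

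**Figure D4:**
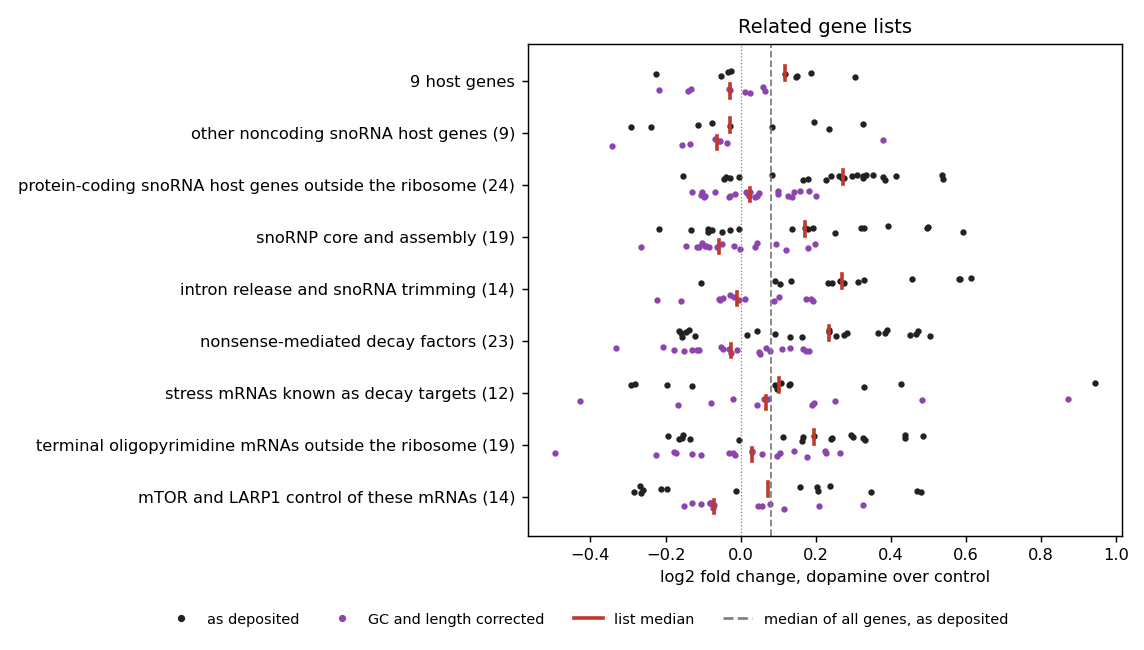
Log2 fold change (dopamine over control) of each tested gene in the 9 hosts and in 8 related lists (number of tested genes in brackets), as deposited (black) and after the GC and length correction (purple), with list medians as red bars and the median of all genes, 0.08, as a dashed line. The corrected list medians lie between -0.07 and 0.07.

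Genes whose profile over the 6 libraries was most like that of the hosts were sought by the root mean square difference from the mean centred log2 profile of the 9 hosts, among 10783 tested genes outside the lists. The nearest were RAB5B (0.0229 log2 units), ZNF71 (0.0260), TMEM199 (0.0279), PSMC5 (0.0286) and SNRPF (0.0304). Their log2 fold changes were small, at 0.07, 0.11, 0.04, 0.04 and 0.04. Each host lay farther from the mean profile than these genes, from 0.0735 for SNHG15 to 0.177 for SNHG7. The 5 genes were picked as the nearest to a mean over 9 genes, so the distances of single hosts are not comparable with theirs.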

How the data were processed

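The authors deposited FPKM values for 26789 genes in 6 libraries. The submitters' processing notes list hg19 and 4 tools without their roles: DESeq2 1.40.2, HTSeq 0.11.2, STAR 2.7.1a and FastQC 0.11.9. Annotation, strand setting and the handling of shared reads are not stated. FPKM divides by each library's total, so a rise of abundant genes lowers the others.

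Totals were recovered from 2797 pseudogenes with a span of 150 to 1500 bases, taken to have a single exon: 92.6 to 94.1% of tested values were whole fragments within 0.03. Genes with a mean of 1 FPKM or more (11791) were compared as log2(FPKM + 0.5) with limma 3.58.1 in R 4.3.3 (intensity trend, two-sided, Benjamini-Hochberg, threshold 0.05, no replicate block), which understates fold changes of low genes. GC content and length of the longest transcript came from GENCODE 29 (GRCh38) by gene identifier, for 98.2% of tested genes (11579). For the correction, deviations from the gene means were regressed on both by loess (span 0.5), a library at a time. Sequences came from RefSeq (GRCh38.p14) and GENCODE 29, and RefSeq start windows were read for 7 of 9 hosts. SNHG6, on chromosome 8, was left out of this reading, and no window was found for SNHG15. Named genes were all hosts, the members of each list with the lowest p (at most 4), overlapping genes, MALAT1, NEAT1 and the 5 nearest profiles. CASC7, PRKDC, CCT3 and EIF4A1 were named after their values were seen. The hosts, the lists and the GC correction were chosen with earlier results of these data known. No p was computed over a list. A check of the cells against adrenergic markers is not reported here.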

Additional observations from a re-analysis of the deposited data

How the results depend on the processing

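The number of hosts past the adjusted threshold in limma was 0 in 20 of 21 alternatives (0 to 0 on leaving out each library) and 1 with sample quality weights (GAS5). GAS5, SNHG5 and SNHG7 kept their direction in every alternative that tested them, with log2 fold changes from 0.02 to 0.34, 0.06 to 0.24 and -0.39 to -0.03. Of 187 host values 172 kept their direction.

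Directions turned for SNHG12 (0.00237) and SNHG8 (-0.0363) with sample quality weights, for SNHG12 (0.0276) and SNHG8 (-0.00692) with both replicates numbered 3 left out, and for SNHG12 (0.0108), SNHG6 (-0.0293) and SNHG1 (-0.14) with the GC and length correction, with or without the replicate block. On leaving out each library in turn SNHG3 ran from -0.105 to 0.0558, SNHG8 from -0.00634 to 0.25 and SNHG15 from -0.0613 to 0.00932. The cause was not tested.

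The count of genes called was 12. It was 6 with no filter, 27 with quantile normalization (66.7% of them higher with dopamine, against 83.3%), 5 with no trend, 2706 with weights, 7 with both replicates numbered 3 left out and 28 in the GC-corrected fit. Leaving out single libraries gave 3 to 2177 calls: 6, 9 and 7 without dopamine replicates 1, 2 and 3, and 2177, 3 and 6 without control replicates 1, 2 and 3. Of 141 tested genes in the lists around the hosts 1 was called, against 37 with weights, 0 to 37 on leaving out each library (37 without control replicate 1), and 0 with no filter, median-of-ratios scaling, no trend, the replicate block, both replicates numbered 3 left out, and the GC correction with the block.

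Replicate numbers showed no common pairing of the samples (correlations of deviations -0.20, 0.28 and -0.37). These deviations carry the GC trend, so pairing is not settled by them. With the replicate block 3 genes and 0 hosts were called. In the GC-corrected fit the block took calls from 28 to 8, and genes at an unadjusted limma p under 0.05 from 1964 to 2066. Depth limits SNHG12 and SNHG7 most, and a mean of 5 FPKM as the filter left both out.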
